A study of Mus musculus with 26 samples.

Results

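The 8 genes Wt1, Emx2, Lhx9, Upk3b, Krt19, Podxl, Tcf21 and Nr2f2 mark the coelomic epithelium, the progenitors that leave it, and the interstitium of the fetal gonad. They were chosen by name and found by symbol and Ensembl identifier in the count tables, where all 8 were present among 57186 genes in the table of all Fgf9 deletions and among 31053 genes in the Meis1 table. All 8 passed the filter on low counts in both. Poly(A) RNA-seq had been done on XY mouse gonads at E13.5, dissected away from the mesonephros. The 26 libraries fall into 6 groups: wild type (WT, 3), the Fgf9 deletions Δ306 (3), Δ225 (6), Δ104 (4) and Δ93 (6), and the Meis1 knockout (Meis1 KO, 4). The labels give neither the extent of each deletion, the strain, the number of deleted alleles, how Meis1 was inactivated, nor whether a library holds 1 embryo or a pool, and nothing says which embryos shared a litter. Only the Δ225, Δ104, Δ93 and Meis1 KO replicates are labelled as biological, so the spread among the WT and Δ306 libraries, and p-values that rest on it, may be partly technical.

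The gonad forms where the coelomic epithelium thickens over the mesonephros, and cells that leave this epithelium give rise to supporting cells and to interstitial cells. Wt1, Emx2 and Lhx9 encode transcription factors that the early gonad needs in order to grow, and all are active in the epithelium and its early descendants. Upk3b, Krt19 and Podxl encode surface and cytoskeletal proteins of mesothelial or other epithelia, while Tcf21 and Nr2f2 encode transcription factors of the mesenchyme and interstitium. FGF9 is a secreted growth factor required for testis development in XY gonads, and MEIS1 is a homeodomain transcription factor.

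Levels are in CPM, the usual count unit scaled for library size. A gene was called when its Benjamini-Hochberg adjusted p in edgeR's quasi-likelihood test was under 0.05, and log2 fold changes are given with their standard error (SE). Total counts per library were 11582619 to 53392393 in the table of all deletions and 35468633 to 51732897 in the Meis1 table. Fgf9 itself lay at 9.21 to 9.85 CPM in WT, 2.17 to 2.94 CPM in Δ306, 3.69 to 16.5 CPM in Δ225, 2.72 to 6.98 CPM in Δ104 and 2.30 to 4.75 CPM in Δ93, and was called lower than WT in Δ306 (log2 fold change -1.94, adjusted p = 0.0148) and in Δ93 (-1.63, adjusted p = 0.00532). The Δ306 call was lost without Δ306 replicate 2 or 3 (-1.89 and -1.94). Meis1 was at 62.1 to 109 CPM in WT and at 0.201 to 0.695 CPM in Meis1 KO. All libraries are labelled XY, but in 7 of the deletion libraries the summed level of 4 Y-linked genes (Ddx3y, Eif2s3y, Kdm5d, Uty) was under 3.12 CPM, a limit set from the lowest WT library at 31.2 CPM. They are Δ306 replicate 3, Δ225 replicate 4, Δ104 replicate 3 and Δ93 replicates 3, 4, 5 and 6, and Xist was highest, at 6.42 CPM, in Δ93 replicate 4, the library with the lowest Y-linked sum. The sum was also under the lowest WT library in the other libraries of Δ93 (3.96 and 6.60 CPM) and Δ306 (11.2 and 11.7 CPM). The same held for the other Δ225 libraries (7.4 to 20.5 CPM) and for Δ104 replicates 1 and 2 (5.165 and 5.41 CPM), but not for Δ104 replicate 4 (36.2 CPM). Leaving out the 7 libraries thus does not bring the deletions to the WT level of these genes. All 4 Y-linked genes were called lower than WT in Δ93. In the Meis1 table the sum was 3.67 to 15.8 CPM in the knockout and 33.3 to 81.6 CPM in WT, with Uty called lower. The results below that rest on the 7 libraries are given with and without them; without them Fgf9 was not called in Δ306 (-1.94, adjusted p = 0.155) or Δ93 (-1.92, adjusted p = 0.103).

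Of the 8 genes, 5 had a promoter window in the RefSeq-derived table on GRCm38.p6: Emx2, Lhx9, Upk3b, Tcf21 and Nr2f2. The windows below are those of the genes called in at least 1 deletion, 250 bases up to the RefSeq start and 5′ to 3′ on the coding strand. Only the stretch outside exons of protein coding genes is printed, which leaves 219 bases for Tcf21 and nothing for Emx2. Capitals mark GATA, the core of the GATA factors' site, and CTTTGA, the core of the TCF and LEF factors' site, on either strand (TATC and TCAAAG are the reverse complements); the second was put in capitals after the matches had been seen.
Upk3b (chr5:136038246-136038495, + strand): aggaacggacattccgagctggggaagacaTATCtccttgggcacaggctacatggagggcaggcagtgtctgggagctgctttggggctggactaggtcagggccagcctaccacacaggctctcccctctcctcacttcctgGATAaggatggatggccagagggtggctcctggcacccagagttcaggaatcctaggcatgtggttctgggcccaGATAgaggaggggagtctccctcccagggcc
Tcf21 (chr10:22820175-22820393, - strand): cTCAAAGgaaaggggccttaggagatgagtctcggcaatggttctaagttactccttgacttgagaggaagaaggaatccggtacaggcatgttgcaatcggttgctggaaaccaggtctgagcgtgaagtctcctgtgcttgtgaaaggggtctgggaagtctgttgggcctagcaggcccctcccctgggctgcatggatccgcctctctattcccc
Nr2f2 (chr7:70366747-70366996, - strand): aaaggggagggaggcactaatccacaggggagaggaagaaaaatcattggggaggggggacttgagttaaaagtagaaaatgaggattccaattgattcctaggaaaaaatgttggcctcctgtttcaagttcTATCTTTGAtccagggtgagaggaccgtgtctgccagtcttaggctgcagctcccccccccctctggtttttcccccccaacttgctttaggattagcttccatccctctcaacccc
The Upk3b window held 3 GATA matches, and Lhx9, Tcf21 and Nr2f2 held 1 each (that of Tcf21 lies in the part not printed), against 53.6% of 32851 RefSeq windows of 250 bases with at least 1. CTTTGA occurred once in Tcf21 and once in Nr2f2, where it shares 1 base with the GATA match, and in none of the Emx2, Lhx9 and Upk3b windows; 13.8% of all windows held it. The Emx2 window was richest in CpG, with 24 of them and 67.2% G and C against medians of 6 and 52.4%, and it alone held GGGCGG, 2 times, as did 32.7% of all windows at least once. AACAAT and AAGGTCA had no match in the 5 windows, against 9.42% and 4.08% of all windows, and CANNTG, the E-box, had 1 match each in Lhx9, Upk3b and Nr2f2, against 66.2%. These matches describe letters in the windows and were not tied to any factor here.

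Podxl and Emx2 rose and Tcf21 fell against WT in both Δ306 and Δ93, and in Δ93 Wt1, Upk3b and Krt19 also rose and Nr2f2 also fell. None of the 8 genes passed the test against WT in Δ225 or Δ104. Podxl changed most, rising 3.38-fold in Δ306 and 4.08-fold in Δ93, and Tcf21 fell to 0.358 and 0.323 of its WT level. Called were 3 of 8 genes in Δ306 (2 higher, 1 lower), where 6.43% of the 22941 genes tested were called (2.96% higher, 3.46% lower), and 7 of 8 in Δ93 (5 higher, 2 lower), where 14.1% were (7.23% higher, 6.84% lower). The median log2 fold change of the 8 genes was 0.50 in Δ306, 0.77 in Δ93, 0.12 in Δ225 and 0.62 in Δ104, beside medians over all genes of 0.08, 0.06, 0.04 and 0.06. All 4 comparisons use the same 3 WT libraries, so they are not independent of each other. In bulk gonads, a change in the number of cells that express a gene and a change in RNA per cell cannot be told apart.

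**Figure D1:**
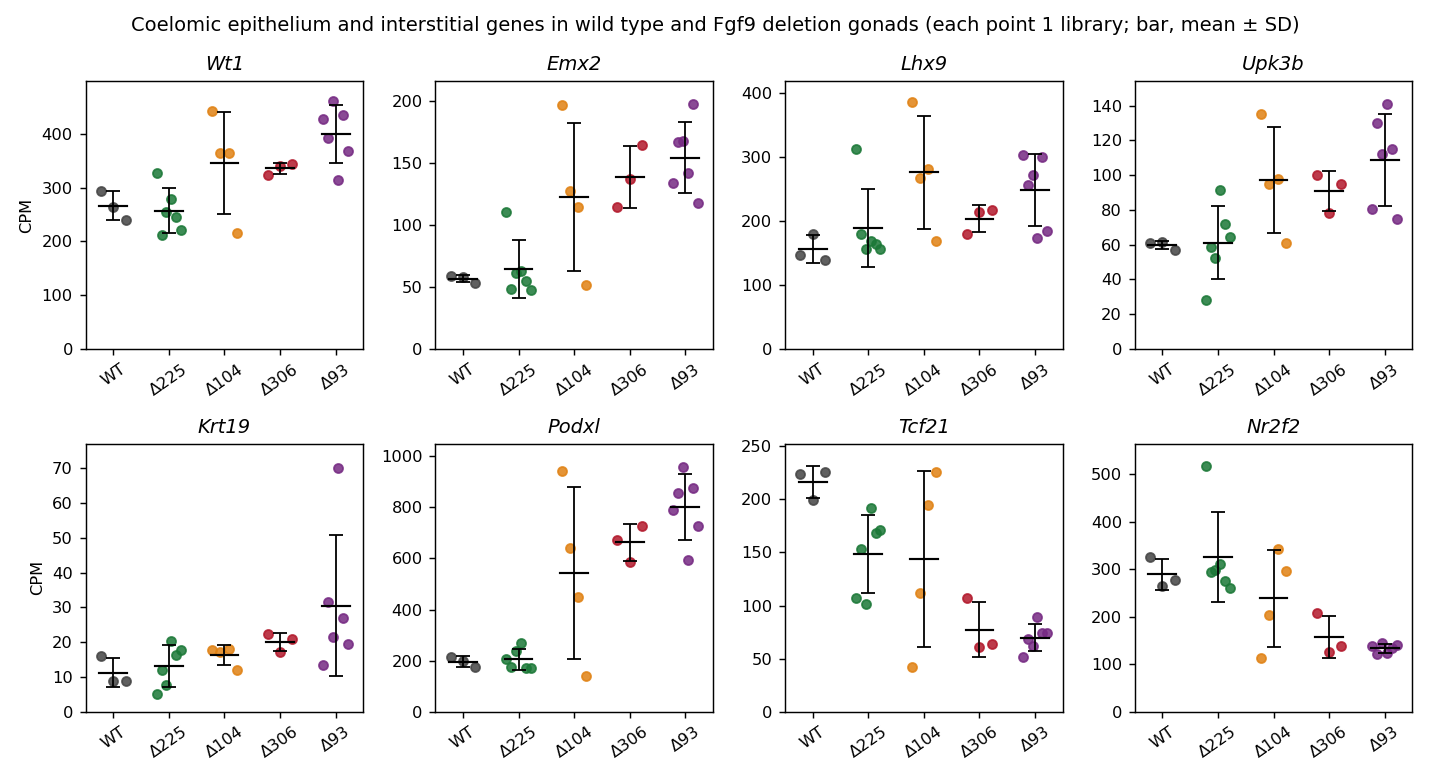
Each panel plots the level of 1 gene in CPM (y axis, from 0) in the 22 libraries of WT and the 4 Fgf9 deletions (x axis), 1 point per library, with bars at the mean ± SD. Podxl reaches 587 to 959 CPM in Δ306 and Δ93 against 176 to 216 CPM in WT, and the 4 Δ104 libraries spread from 141 to 944 CPM.

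Wt1 (chr2:105126529-105173616 on GRCm38) encodes a zinc finger factor on which the early gonad depends. It was at 294, 265 and 240 CPM in WT, 324, 339 and 344 CPM in Δ306, and 315, 410 and 462 CPM (lowest, median, highest) in Δ93. Every Δ306 and Δ93 library lay above every WT library. The log2 fold change was 0.59 (SE 0.18, adjusted p = 0.0341) in Δ93, a called rise, and 0.33 (SE 0.20, adjusted p = 0.358) in Δ306, which did not pass. In Δ225 Wt1 spanned 212 to 327 CPM around the WT range, with a log2 fold change of -0.05 (95% interval -0.42 to 0.32).

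Emx2 (chr19:59458372-59465357) encodes a homeobox factor of the urogenital epithelium. Its WT libraries were close together, at 59.0, 58.1 and 53.6 CPM. The Δ306 libraries held 115, 137 and 165 CPM and the Δ93 libraries 118, 155 and 198 CPM (lowest, median, highest), all above WT. Emx2 rose by 1.29 on the log2 scale in Δ306 (SE 0.34, adjusted p = 0.0300) and by 1.44 in Δ93 (SE 0.31, adjusted p = 0.00499). Emx2os, a gene on the opposite strand that overlaps Emx2, was also called higher, with log2 fold changes of 1.67 in Δ306 and 1.74 in Δ93. The libraries keep strand, but whether the authors counted by strand is not given in the sources used here, so reads of the 2 genes may be shared.

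Lhx9 (chr1:138825186-138848577), a LIM homeobox gene of gonadal progenitors, was at 148, 181 and 139 CPM in WT. It was at 180, 215 and 217 CPM in Δ306 and at 175, 265 and 304 CPM (lowest, median, highest) in Δ93. In both deletions the lowest library lay below the highest WT library. Neither difference passed: on the log2 scale Lhx9 was 0.39 higher in Δ306 (SE 0.28, adjusted p = 0.452) and 0.68 higher in Δ93 (SE 0.25, adjusted p = 0.0761).

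Upk3b (chr5:136038496-136046487) encodes a uroplakin found in mesothelium. It was at 60.8, 61.5 and 57.0 CPM in WT, 99.8, 78.0 and 94.9 CPM in Δ306, and 74.7, 114 and 141 CPM (lowest, median, highest) in Δ93. Neither deletion overlapped WT. Upk3b rose in Δ93 by 0.87 on the log2 scale (SE 0.28, adjusted p = 0.0442), and the difference of 0.61 in Δ306 (SE 0.31, adjusted p = 0.269) did not.

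Krt19 (chr11:100140810-100148665), a keratin of simple epithelia, was the lowest of the 8 genes. WT libraries held 16.1, 8.76 and 8.89 CPM, Δ306 libraries 22.3, 17.2 and 21.0 CPM, and Δ93 libraries 13.48, 24.3 and 70.1 CPM (lowest, median, highest). Δ306 lay above WT throughout, whereas the Δ93 libraries overlapped WT and spread over 5.20-fold. The rise in Δ93 was called, at 1.44 on the log2 scale (SE 0.45, adjusted p = 0.0361), but it was 1.04 (adjusted p = 0.0686) without Δ93 replicate 4, the library at 70.1 CPM. In Δ306 the log2 fold change was 0.84 (SE 0.49, adjusted p = 0.332).

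Podxl (chr6:31519488-31563981) encodes podocalyxin, a sialomucin of the apical surface of podocytes and mesothelial cells. WT libraries held 216, 197 and 176 CPM, Δ306 libraries 674, 587 and 727 CPM, and Δ93 libraries 593, 824 and 959 CPM (lowest, median, highest). The lowest mutant library of these 2 deletions lay far above the highest WT library. Podxl rose by 1.76 on the log2 scale in Δ306 (SE 0.39, adjusted p = 0.0123) and by 2.03 in Δ93 (SE 0.36, adjusted p = 0.00155). In Δ225 it stayed between 171 and 271 CPM, with a log2 fold change of 0.07 (95% interval -0.63 to 0.76).

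Tcf21 (chr10:22817281-22820174), a basic helix-loop-helix gene of mesenchymal progenitors, was at 224, 199 and 225.3 CPM in WT. Δ306 libraries held 107, 60.8 and 64.0 CPM and Δ93 libraries 51.1, 71.1 and 89.3 CPM (lowest, median, highest). All lay below every WT library, with Δ306 replicate 1 the highest of them. Tcf21 fell by 1.48 on the log2 scale in Δ306 (SE 0.40, adjusted p = 0.0299) and by 1.63 in Δ93 (SE 0.32, adjusted p = 0.00285).

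Nr2f2 (chr7:70351944-70366735) encodes the orphan nuclear receptor COUP-TFII of interstitial cells. It was at 327, 266 and 277 CPM in WT and at 208, 125 and 139 CPM in Δ306. In Δ93 it was at 122, 136 and 144 CPM (lowest, median, highest), the tightest of the 8 genes in that group (coefficient of variation 6.89%). No library of either deletion reached the WT range. Nr2f2 fell by 1.11 on the log2 scale in Δ93 (SE 0.25, adjusted p = 0.00583), while its difference of -0.88 in Δ306 (SE 0.30, adjusted p = 0.0798) did not pass, although it did without Δ306 replicate 1 (-1.165, adjusted p = 0.0405). Antisense genes overlap both interstitial genes: Gm10824 at Tcf21 was not called in either deletion, and B130024G19Rik at Nr2f2 was called lower in Δ93 (log2 fold change -1.40).

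**Figure D2:**
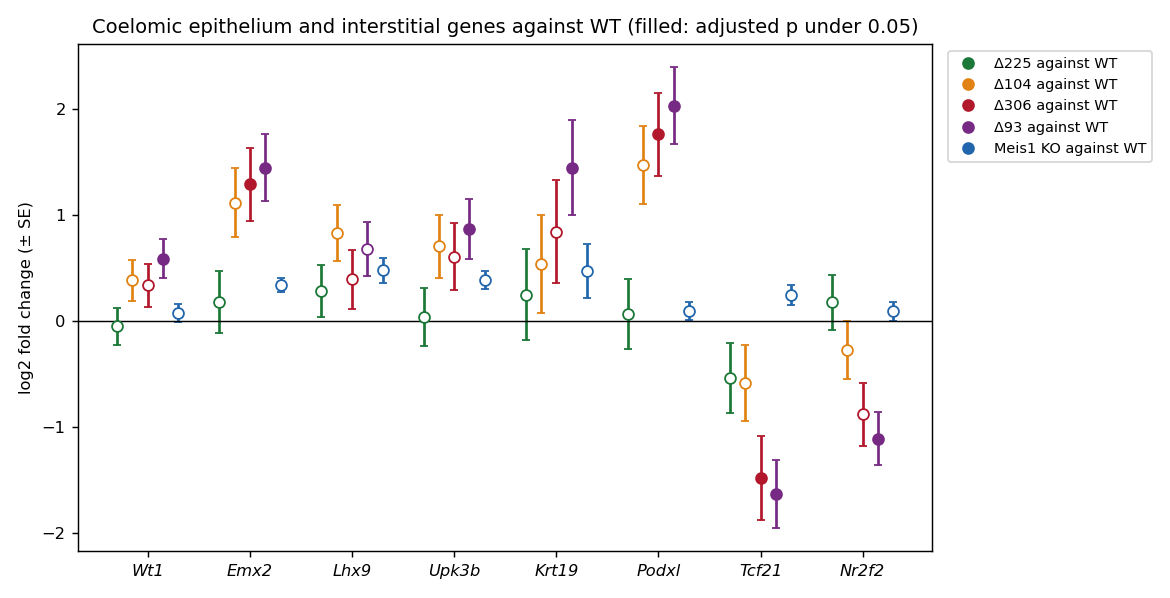
For each of the 8 genes (x axis) the points give the log2 fold change against WT (y axis, bars ± SE) in Δ225, Δ104, Δ306, Δ93 and Meis1 KO, filled where the adjusted p was under 0.05. Filled points lie above 0 for epithelial genes and below 0 for Tcf21 and Nr2f2, up to 2.03 for Podxl and down to -1.63 for Tcf21 in Δ93.

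Counted by libraries alone, 7 of the 8 genes did not overlap WT in Δ306 (all but Lhx9), beside 37.6% of all genes tested, and 6 did not in Δ93 (all but Lhx9 and Krt19), beside 24.7%. The Δ306 calls were sensitive to single libraries: leaving out WT replicate 2, WT replicate 3 or Δ306 replicate 3 left 0 of 8 called, and leaving out WT replicate 1 or Δ306 replicate 2 left 1. In Δ93, Podxl, Emx2, Tcf21 and Nr2f2 were called whichever library was left out, and leaving out Δ93 replicate 2 or any WT library left only these 4. Wt1 was also lost without Δ93 replicate 3 or 5 (adjusted p = 0.0534 and 0.0517), and Upk3b without Δ93 replicate 3, 4 or 5 (0.0539 to 0.0711). Without the 7 libraries low in Y-linked genes, 0 of 8 were called in Δ306 (4 at an unadjusted p under 0.05) and 0 in Δ93 (6 at an unadjusted p under 0.05), with 2 Δ306 and 2 Δ93 libraries left and only 25 and 9 of all genes called. All 8 genes kept their sign in both comparisons: Podxl was at 1.64 and 2.03 and Tcf21 at -1.40 and -1.90 on the log2 scale in Δ306 and Δ93, and Krt19 in Δ93 was at 0.95. For fits without the 7 libraries, here and below, the share of all genes at an unadjusted p under 0.05 was not computed. Counts at that threshold in such fits therefore cannot be set against all genes.

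In Δ225, 0 of 8 genes were called against WT by edgeR, 0 were at an unadjusted p under 0.05, and DESeq2 called 0. Of all genes, 0.209% were called and 16.1% were at an unadjusted p under 0.05. Log2 fold changes ran from -0.54 for Tcf21 to 0.28 for Lhx9, with adjusted p from 0.405 to 0.955. Tcf21, at 101.3 to 191.7 CPM, lay below all 3 WT libraries and was the only one of the 8 not to overlap, beside 10.1% of all genes, while its 95% interval of -1.23 to 0.16 on the log2 scale includes 0. Δ225 replicate 1, the shallowest library at 11582619 counts, stood apart in opposite directions: it had the highest Emx2 (111 CPM), Lhx9 (313 CPM) and Nr2f2 (518 CPM) of the 6 and the lowest Upk3b (28.2 CPM) and Krt19 (5.07 CPM).

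In Podxl, Emx2 and Tcf21 the Δ104 libraries spread more than those of any other group (coefficients of variation 62.0%, 48.6% and 57.6%), whereas in Upk3b and Krt19 those of Δ225 spread more (34.4% and 45.3%, against 31.3% and 17.2%). Podxl was at 944, 640, 450 and 141 CPM in replicates 1 to 4, Emx2 at 197, 128, 115 and 51.8 CPM, and Tcf21 at 42.6, 112, 195 and 226 CPM. Replicate 1 lay within the Δ93 range for Podxl and Emx2 and below it for Tcf21. Replicate 4 lay just outside the WT range for Emx2 and Tcf21, and for Podxl it lay below WT (141 against 176 to 216 CPM). Counted by libraries, 0 of the 8 genes were free of overlap with WT, beside 18.1% of all genes. By edgeR 0 of 8 genes were called (4 at an unadjusted p under 0.05, beside 15.7% of all genes; 0.061% of all genes were called), although the Podxl log2 fold change was 1.47 (SE 0.37, adjusted p = 0.0925) and that of Emx2 1.11 (SE 0.33, adjusted p = 0.142). DESeq2 called these 2 (log2 fold changes 1.48 and 1.12, adjusted p = 0.00865 and 0.0488), and without Δ104 replicate 4, 3 of 8 were called, among them Podxl at 1.79. Over all genes DESeq2 called 601 in Δ104, against 14 by edgeR, and edgeR with 1 library left out called 1 to 528.

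**Figure D3:**
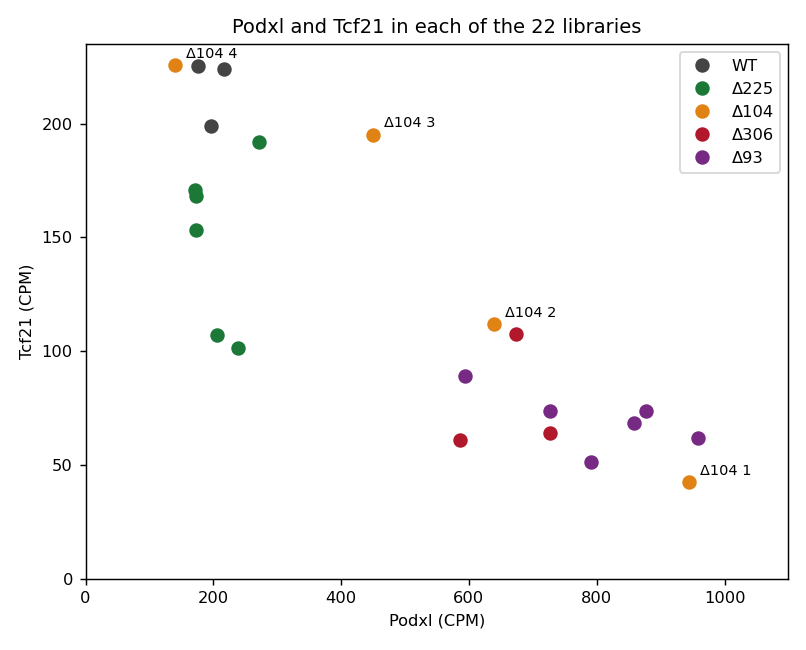
Each point is 1 of the 22 libraries, placed by Podxl (x axis, CPM) and Tcf21 (y axis, CPM) and coloured by group, with the Δ104 replicates numbered. WT and Δ225 lie at 171 to 271 CPM of Podxl, Δ306 and Δ93 at 587 to 959 CPM of Podxl with at most 107 CPM of Tcf21, and the Δ104 libraries are strung out from 42.6 to 226 CPM of Tcf21.

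The 2 sets can be read against each other as the ratio of the summed CPM of the 6 epithelial genes to that of Tcf21 and Nr2f2. The sums are unweighted, so genes with high CPM, Podxl above all, weigh most. Mean Podxl was 196 CPM in WT and 801 CPM in Δ93, and mean Krt19 was 11.2 and 30.5 CPM. The ratio was 1.34 to 1.66 in WT, 1.53 to 1.92 in Δ225, 4.49 to 7.73 in Δ306 and 6.74 to 9.67 in Δ93. The Δ104 libraries gave 13.7, 4.77, 2.46 and 1.25, which covers more than the range of all the others. In the Meis1 table the ratio was 1.32 to 1.64 in WT and 1.44 to 1.62 in the knockout.

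Levels per kilobase of exon put the genes on 1 scale. In WT, Tcf21 was highest at 92.0 CPM per kb, followed by Wt1 at 43.0, Podxl at 35.7, Nr2f2 at 33.6, Emx2 at 19.0, Upk3b at 16.9, Lhx9 at 16.4 and Krt19 at 6.05. In Δ93, Podxl led at 146 CPM per kb, ahead of Wt1 at 64.5 and Emx2 at 51.5, and Tcf21 was at 29.7. Ranked by group mean in CPM, Δ93 was highest for Wt1, Emx2, Upk3b, Krt19 and Podxl and lowest for Tcf21 and Nr2f2, while Δ104 was highest for Lhx9. Neighbouring groups in these orders overlapped library by library, except Δ306 above WT for Wt1 and WT above Δ225 for Tcf21.

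The deletions were also compared with each other. The WT libraries are not part of these differences, but the shared fit uses them for filtering, scaling and the estimate of spread. Against Δ93, Δ225 had lower Podxl (171 to 271 against 593 to 959 CPM), Emx2 (47.6 to 111 against 118 to 198 CPM) and higher Tcf21 (101.3 to 191.7 against 51.1 to 89.3 CPM) and Nr2f2 (261 to 518 against 122 to 144 CPM). None of these 4 pairs of ranges overlapped, beside 11% of all genes. Called were 7 of 8 genes, beside 20.8% of all genes tested: Podxl at -1.96 (SE 0.28, adjusted p = 8.89e-05), Emx2 at -1.27, Krt19 at -1.20, Upk3b at -0.83 and Wt1 at -0.64, and Tcf21 at 1.09 and Nr2f2 at 1.29 on the log2 scale; Lhx9 at -0.39 (adjusted p = 0.167) was not. Without Δ93 replicate 4, Krt19 was no longer called (-0.79, adjusted p = 0.0683), and without Δ225 replicate 1 Lhx9 was also called. Without the libraries low in Y-linked genes, Podxl alone was called (-2.08, adjusted p = 0.0301), and all 8 kept their sign.

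Against Δ306, Δ225 differed in 3 of 8 genes, beside 13.2% of all genes: Podxl at -1.69 (SE 0.32, adjusted p = 0.00186), Emx2 at -1.11 (SE 0.28, adjusted p = 0.0141) and Nr2f2 at 1.06 (SE 0.27, adjusted p = 0.0140). Tcf21 was higher in Δ225 by 0.94 on the log2 scale, which did not pass (adjusted p = 0.0779). Leaving out Δ306 replicate 2 or Δ306 replicate 3 left Podxl as the only call, and without the libraries low in Y-linked genes 0 were called (3 at an unadjusted p under 0.05). Against Δ104, Δ225 differed in Podxl only, at -1.41 (SE 0.30, adjusted p = 0.0258), beside 0.645% of all genes, and this call was lost without Δ104 replicate 1 (-0.998, adjusted p = 0.345) or Δ104 replicate 2 (-1.33, adjusted p = 0.109), without any of Δ225 replicates 1, 2, 5 and 6 (-1.36 to -1.41), and without the libraries low in Y-linked genes (-1.57). Without Δ104 replicate 4, Emx2 and Wt1 were called too (-1.19 and -0.60), and without Δ225 replicate 1 Emx2 was called (-1.16) in place of Podxl.

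Δ93 and Δ306 were not told apart by any of the 8 genes. By edgeR 0 were called and 0 were at an unadjusted p under 0.05, DESeq2 called 0, and of all genes 0.0785% were called and 9% were at an unadjusted p under 0.05. The Podxl difference, Δ93 minus Δ306, was 0.27 on the log2 scale with a 95% interval of -0.43 to 0.97, and that of Tcf21 was -0.15 (-0.85 to 0.55), so differences of these sizes are not excluded. Between Δ93 and Δ104, edgeR called 0 (3 at an unadjusted p under 0.05; DESeq2 called Tcf21 and Nr2f2), beside 0.0523% of all genes called and 14.5% at an unadjusted p under 0.05. Between Δ104 and Δ306 it called 0 (2 at an unadjusted p under 0.05; DESeq2 0), beside 0.0654% and 11.1%. Without Δ104 replicate 1, Tcf21 and Nr2f2 were called lower in Δ93 than in Δ104 (-1.32 and -1.05), and Tcf21 higher in Δ104 than in Δ306 (1.18). Over all genes DESeq2 called 546 between Δ93 and Δ104, against 12 by edgeR, and edgeR with 1 library left out called 3 to 791.

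In Meis1 KO all 8 genes had a positive log2 fold change, from 0.07 for Wt1 to 0.48 for Lhx9, and none was called by edgeR (0 of 8, 4 at an unadjusted p under 0.05), beside 1.8% of the 16791 genes tested in that table called and 19.3% at an unadjusted p under 0.05. Their median was 0.29, against 0.00326 over all genes. Emx2 was at 63.5, 62.1 and 56.9 CPM in WT and at 80.2, 77.2, 73.7 and 75.9 CPM in Meis1 KO. Lhx9 was at 158, 193 and 147 CPM in WT and at 241, 242, 196 and 246 CPM in the knockout. Upk3b was at 65.2, 66.1 and 60.4 CPM in WT and at 76.5, 93.2, 79.3 and 85.5 CPM in the knockout. For these 3 genes and Tcf21 (214 to 240 CPM in WT, 252 to 312 CPM in the knockout) every knockout library lay above every WT library, and over all genes 19.7% did not overlap.

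The differences for Emx2 (log2 fold change 0.34, SE 0.07, adjusted p = 0.0521), Upk3b (0.39, SE 0.09, adjusted p = 0.0638) and Lhx9 (0.48, SE 0.12, adjusted p = 0.0827) missed the threshold in edgeR. DESeq2 called all 3, with adjusted p of 0.00142, 0.00355 and 0.00881, and without WT replicate 1 edgeR called them together with Krt19, 4 of 8 in all. Over all genes DESeq2 called 1410 in Meis1 KO, against 303 by edgeR, and edgeR with 1 library left out called 15 to 2204. Tcf21 was at 0.25 (SE 0.09, adjusted p = 0.206) and Krt19 at 0.47 (SE 0.25, adjusted p = 0.356). Podxl, at 186 to 232 CPM in WT and 210 to 232 CPM in Meis1 KO, had a log2 fold change of 0.09 with a 95% interval of -0.13 to 0.32.

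**Figure D4:**
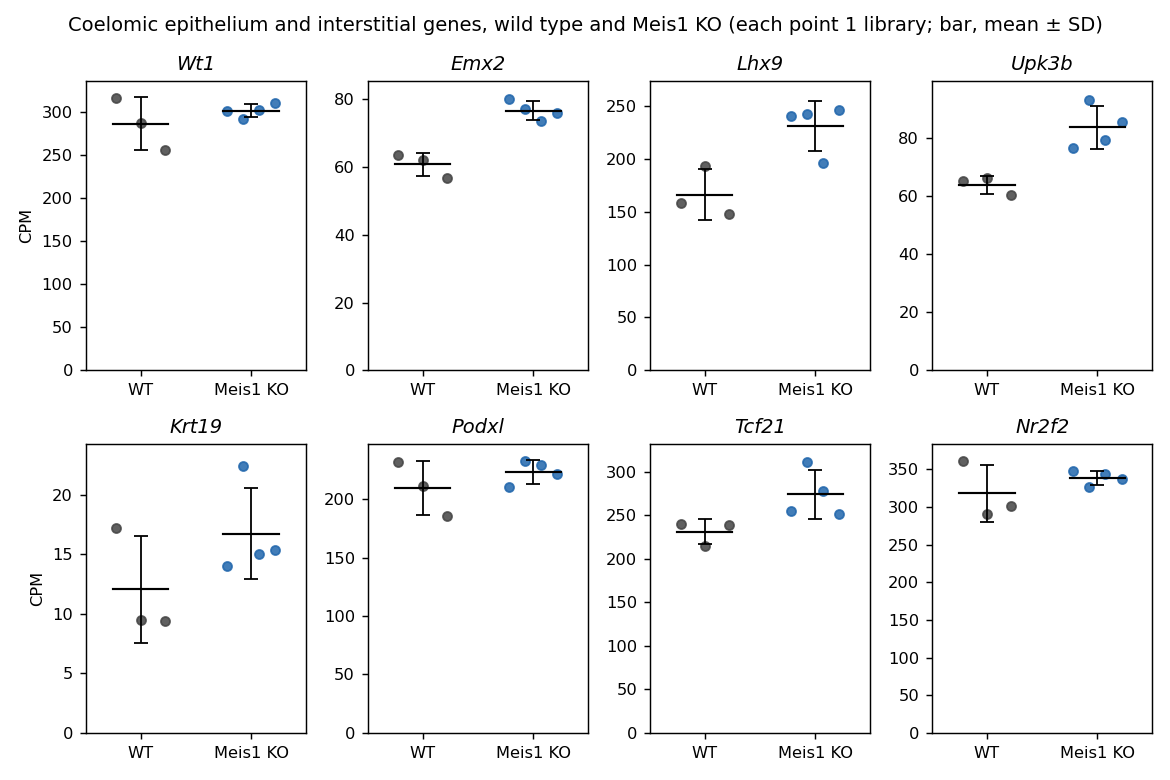
Each panel plots 1 gene in CPM (y axis, from 0) in the 3 WT and 4 Meis1 KO libraries of the Meis1 table (x axis), 1 point per library, with bars at the mean ± SD. The knockout points of Emx2, Lhx9, Upk3b and Tcf21 lie above all WT points, and those of Wt1, Krt19, Podxl and Nr2f2 overlap WT.

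Other genes of the same tissues were read from 3 lists. Of 13 interstitial and stromal genes, 7 fell in Δ306 (median log2 fold change -1.41) and 9 in Δ93 (-1.165), and none rose in either, beside 3.46% and 6.84% of all genes lower. In Δ225 and Δ104 edgeR called 0 of them (1 and 2 at an unadjusted p under 0.05), and so did DESeq2. Without the libraries low in Y-linked genes 0 were called in Δ306 (7 at an unadjusted p under 0.05) and 0 in Δ93 (9). In Δ306 the largest called changes were in the Notch ligand Jag1 (-2.22), the adhesion molecule Vcam1 (-1.98) and the secreted Wnt ligand Wnt5a (-1.71), and in Δ93 in Vcam1 (-2.89), the Hedgehog effector Gli1 (-2.75) and Jag1 (-2.44). In Δ306, Jag1 was not called without Δ306 replicate 3 (-2.15), nor Vcam1 without any 1 WT library or Δ306 replicate 2 or 3 (-2.11 to -1.73). Tcf21 and Nr2f2 thus fell in Δ93 beside most of this list. In Meis1 KO, Vcam1 (0.65, adjusted p = 0.0441) and the Notch target Hes1 (0.48, adjusted p = 0.0389) rose, but neither was called without WT replicate 2, WT replicate 3 or any 1 of the 4 knockout libraries (0.58 to 0.72 for Vcam1, 0.45 to 0.54 for Hes1).

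Of 10 other mesothelial and surface epithelium genes, edgeR called 0 in Δ306 (1 at an unadjusted p under 0.05, DESeq2 0, median log2 fold change 0.26) and 2 higher in Δ93 (median 0.50), the keratin Krt18 (1.098, adjusted p = 0.0334) and the zinc finger gene Bnc1 (0.49, adjusted p = 0.0401). Over all genes 7.23% were called higher in Δ93. Leaving out WT replicate 2, WT replicate 3, Δ93 replicate 2 or Δ93 replicate 4 ended the Krt18 call (0.90 to 1.07), and leaving out WT replicate 1, WT replicate 2 or Δ93 replicate 2 ended that of Bnc1 (0.32 to 0.44). Mesothelin (Msln) was at 0.51 (SE 0.85), Upk1b at -0.06 (SE 0.25) and Lrrn4 at 0.18 (SE 0.25) in Δ93, and none of the 3 was called against WT by edgeR in any group. The membrane glycoprotein gene Gpm6a lay lower in both deletions, at 7.23 to 9.40 CPM in WT, 3.89 to 7.02 CPM in Δ306 and 4.19 to 6.34 CPM in Δ93. Against WT it was not called in either (-0.56 and -0.65, adjusted p = 0.381 and 0.158). It was called higher in Δ225, at 10.03 to 19.0 CPM, than in Δ93 (1.35, adjusted p = 0.000861) and Δ306 (1.27, adjusted p = 0.0145). Neither call held without the libraries low in Y-linked genes (1.498 and 1.11), and the second was also lost without Δ306 replicate 3 (1.09). Of the 10 genes of this list, 4 were called lower and 1 higher in Δ225 than in Δ93, beside 20.8% of all genes. Against Δ306, 2 were lower and 2 higher, beside 13.2%. Krt8 and Krt18 lay lower in Δ225, at -1.56 and -1.45 against Δ93 and -1.14 and -1.21 against Δ306. Without the libraries low in Y-linked genes 0 of the 10 were called in either comparison. In Meis1 KO, Gpm6a was called higher than WT (0.69, adjusted p = 0.0494), but not without WT replicate 2, WT replicate 3 or any 1 knockout library (0.59 to 0.79). Of 10 early gonad regulators, Lhx2 rose in Δ306 (2.37, adjusted p = 0.0407), from 0.804 ± 0.255 CPM (SD, n = 3) in WT to 4.16 ± 1.51 CPM (SD, n = 3). Nr5a1, which encodes the steroidogenic factor SF1, was at 355 to 391 CPM in WT and 155 to 184 CPM in Δ306 (-1.15, adjusted p = 0.0643), and Gata4 at 373 to 437 CPM in WT and 234 to 269 CPM in Δ306 (-0.68, adjusted p = 0.138). In Δ306 edgeR called neither, while DESeq2 called Nr5a1 lower and Lhx2 and Numb higher. In Δ93, Lhx2 (2.94), Numb (0.74) and Gata6 (0.74) rose, while Gata4 (-0.19, adjusted p = 0.644) and Nr5a1 (-0.75, adjusted p = 0.109) were not called. Without the libraries low in Y-linked genes 0 of either list were called in Δ306 or Δ93, and Lhx2 was at 2.04 and 3.15. The Lhx2 call in Δ306 was also lost without any 1 WT library or Δ306 replicate 2 or 3 (2.04 to 2.55), and that of Gata6 without any 1 WT library or Δ93 replicate 2, 3, 4 or 5 (0.60 to 0.92).

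**Figure D5:**
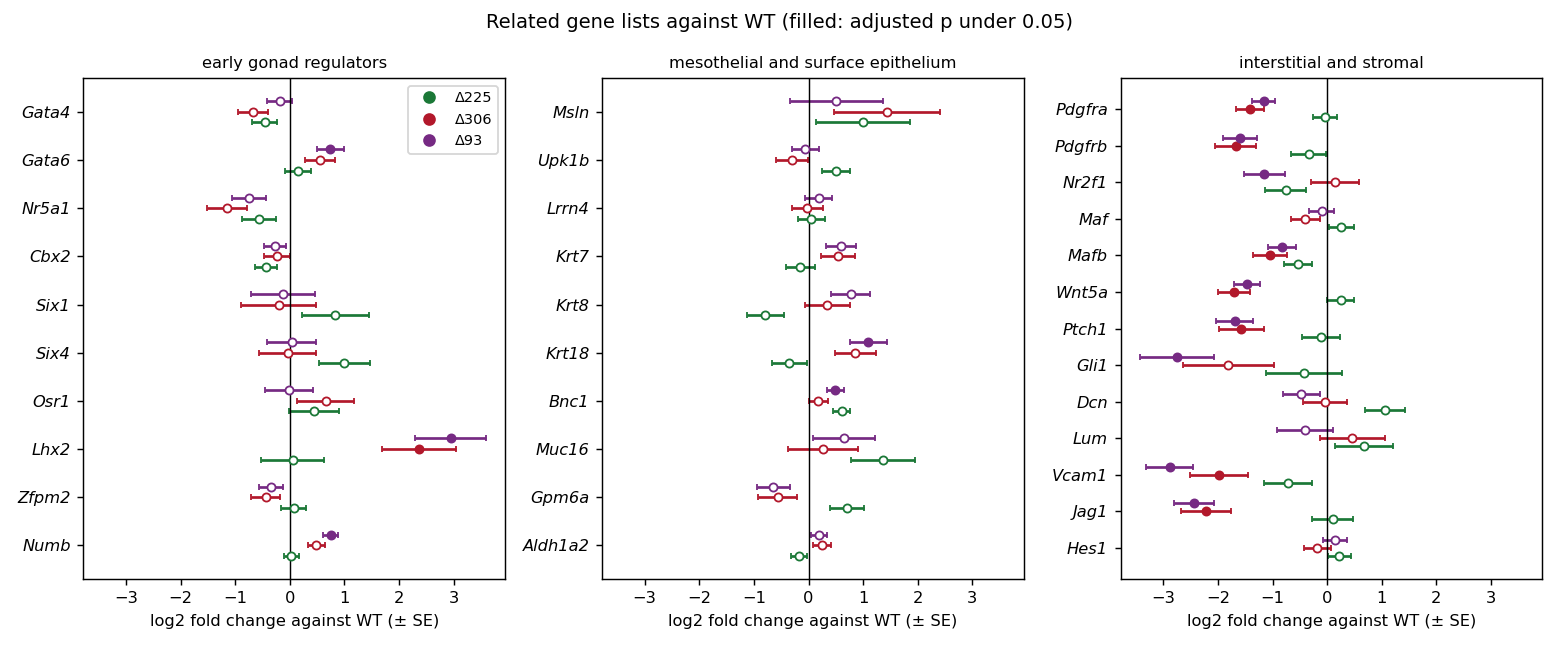
Log2 fold changes against WT (x axis, bars ± SE) of the genes of 3 lists (y axis, 1 panel each) in Δ225, Δ306 and Δ93, filled where the adjusted p was under 0.05. Filled points are all below 0 in the interstitial and stromal panel, and the Δ225 points are all open.

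Markers of several other cell types moved in the same libraries as the 8 genes. The summed CPM of 7 pre-granulosa genes was 88.8 to 133 in WT, 89.6 to 127 in Δ225, 410 to 798 in Δ306 and 472 to 1180 in Δ93, and 837, 403, 166 and 84.1 in Δ104 replicates 1 to 4. That of 8 Sertoli genes was 1983 to 2431 in WT, 73.8 to 528 in Δ306, 43.6 to 877 in Δ93 and 574 to 2241 in Δ225, and that of 5 fetal Leydig genes was 902 to 1554 in WT, 39.8 to 91.3 in Δ306 and 50.1 to 314 in Δ93. In Δ225 the Leydig sum was 452 to 3044 CPM, with a median of 2580 against 1304 CPM in WT. In Δ306, 5 of 7 pre-granulosa genes were called higher, beside 2.96% of all genes, and 0 of 8 Sertoli genes (2 at an unadjusted p under 0.05; DESeq2 called 1) and 3 of 5 fetal Leydig genes lower, beside 3.46%. In Δ93, 7 of 7 pre-granulosa genes were called higher, beside 7.23% of all genes, and 2 of 8 Sertoli genes (5 by DESeq2) and 4 of 5 fetal Leydig genes lower, beside 6.84%. Without the libraries low in Y-linked genes 0 genes of these 3 lists were called in Δ306 (6 pre-granulosa, 1 Sertoli and 4 Leydig at an unadjusted p under 0.05) or in Δ93 (7, 7 and 4). Endothelial and muscle sums were lower than WT in every Δ306 and Δ93 library. That of 5 endothelial genes was 442 to 617 CPM in WT, 284 to 408 in Δ306 and 296 to 421 in Δ93, with Cdh5 called lower in both. The endothelial sum was also under WT in every Δ104 library (328.5 to 411.5 CPM), and in Δ225 it was 254 to 541 CPM. In these 2 groups edgeR called 0 of the 5 genes, and DESeq2 called Tie1 lower in Δ104. That of 5 muscle genes was 192 to 270 CPM in WT, 86.9 to 133 in Δ306 and 84.5 to 173 in Δ93, with Acta2 called lower in both and Myl2 in Δ93. The muscle sum was 70.3 to 236 CPM in Δ104 and 198 to 650 CPM in Δ225. Neither list had a call without the libraries low in Y-linked genes (1 endothelial and 1 muscle gene at an unadjusted p under 0.05 in Δ306, 2 and 2 in Δ93). Of 5 germ cell genes and 5 macrophage and blood genes, edgeR called 0 in Δ306 and 0 in Δ93. The germ cell sum was 469 and 704 CPM in WT replicates 2 and 3 but 14.4 CPM in WT replicate 1. It was 347 to 742 CPM in Δ306 and 490 to 932 CPM in Δ93. The macrophage and blood sum was 5295 to 6505 CPM in WT, 4603 to 9065 in Δ306 and 2175 to 26160 in Δ93. The part of these cell types in the levels of Podxl, Emx2, Tcf21 or Nr2f2 was not tested. Markers of the mesonephric duct and tubules, the tissue dissected away, summed to 33.2 to 51.6 CPM in WT, 41.5 to 66.1 in Δ306 and 48.1 to 62.0 in Δ93, and 1 of 7 was called in each direction in Δ93 (Pax8 and Wnt9b); no gene of any marker list was at 0 in all libraries of a group. In Meis1 KO the mesonephric sum was 29.1 to 42.9 CPM against 37.9 to 55.3 CPM in WT, the pre-granulosa sum 120 to 156 against 95.5 to 143 CPM, and the Sertoli sum 1531 to 2012 against 2156 to 2639 CPM. There 1 of 7 pre-granulosa genes was called higher (Foxl2) and 1 of 8 Sertoli genes lower (Sox10), beside 1.8% of all genes called. The macrophage and blood sum was 388 to 571 CPM in Meis1 KO against 829 to 1110 CPM in WT, with the globin gene Hba-a1, which has a near-identical copy, called lower, and the muscle genes Actc1 and Myl2 were called lower as well. The same 3 WT libraries gave a macrophage and blood sum of 5295 to 6505 CPM in the table of all deletions. That sum thus depends on the table.

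Across the 22 libraries of the deletions table the 8 genes fell into patterns that can be described by Pearson's r of log2 CPM; the points share library depth and group differences, so no test is given. Emx2 ran with Podxl (0.94) and Wt1 (0.93), and this held for deviations from the group means (0.80 and 0.88). Upk3b and Krt19 ran together (0.87, deviations 0.81), but their deviations had little relation to those of Wt1 (0.10 and -0.22). Tcf21 and Nr2f2 ran together at 0.81 (deviations 0.61), and Podxl ran against both, at -0.85 with Tcf21 (deviations -0.68) and -0.83 with Nr2f2 (deviations -0.43). Among 14129 genes with a mean of at least 1 CPM, the 2 most like each gene were Lancl3 (0.96) and Magi1 (0.94) for Wt1, Cdh12 and Arhgap29 (both 0.96) for Emx2, Dennd1b (0.89) and Peg10 (0.87) for Lhx9, and Krt7 (0.93) and Kcnf1 (0.92) for Upk3b. They were Carns1 (0.92) and Ropn1l (0.91) for Krt19, Isx and Gxylt2 (both 0.98) for Podxl, Vstm4 (0.96) and Colec11 (0.96) for Tcf21, and Rnd3 (0.98) and Zeb2 (0.97) for Nr2f2.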

How the data were processed

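Raw read counts per gene were deposited by the authors in tables of whole numbers, with no normalization. Per the submitters' processing notes STAR and DESeq2 were used for all libraries, with STAR 2.7.10a, featureCounts, Subread and mm10 named for WT and Δ306 only; the annotation and the strand setting of the counting are not given in the sources used here. The kit was strand-specific with poly(A) selection, per the labels' protocols. Columns named for Fgf9 in the small table of WT and Fgf9 were taken as Δ306, since the stated design lists only these genotypes. The same 3 WT libraries are in all tables, with identical counts in the small and the Meis1 table. Their counts differ in the table of all deletions: Nr2f2 in WT replicate 1 had 13001 there and 13378 in the Meis1 table.

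The 22 libraries of WT and the deletions were fitted together with edgeR 4.0.16 in R 4.3.3 (filterByExpr, TMM scaling, quasi-likelihood test, 22941 genes, 17 residual degrees of freedom), and Meis1 KO with WT in its own table (16791 genes, 5 degrees of freedom). Adjusted p-values are Benjamini-Hochberg over all genes tested, for 11 comparisons. Levels from the tables were scaled separately. Log2 CPM for correlations used a prior count of 2. Named genes are the 8 genes, Fgf9, Meis1, overlapping genes, up to 3 called genes per related list with the largest change, and the 2 genes most like each; list genes given as not called were picked after their values were seen. 1 gene of the interstitial and stromal list is not reported here. Genes and lists were chosen with earlier results of these data known. Alternatives were DESeq2 1.42.0, RLE scaling, no composition factor, no low-count filter, a replicate block, each library left out, only the groups compared, the small table, and omission of libraries low in Y-linked genes. The fit was tested on simulated counts. Promoters are from RefSeq on GRCm38.p6, and gene positions from GENCODE on GRCm38.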

Additional observations from a re-analysis of the deposited data

Results flagged for a closer look

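In groups of 4 to 6 libraries, 9 of 36 gene and group combinations had 1 library far from the others by Dixon's criterion, which chance meets in about 1 of 20. Δ225 replicate 1 was highest in Emx2 (111 CPM, others 47.6 to 63.0), Lhx9 (313.2 CPM, others 156 to 180) and Nr2f2 (517.6 CPM, others 261 to 312). It is also the shallowest library. Krt19 stood apart in Δ93 replicate 4 (70.12 CPM, others 13.48 to 31.6), Δ104 replicate 4 (12.11 CPM, others 17.3 to 18.0) and Meis1 KO replicate 2 (22.37 CPM, others 14.0 to 15.4). Lhx9 was low in Meis1 KO replicate 3 (196 CPM, others 241 to 246). Fgf9 was high in Δ225 replicate 3 (16.49 CPM, others 3.69 to 6.36) and in Δ93 replicate 4 (4.749 CPM, others 2.30 to 3.09). The part of depth or of single libraries in these values was not tested.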

How the results depend on the processing

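The limits are the 3 WT libraries that 4 comparisons share, the 7 libraries low in Y-linked genes, and the small groups. Of the 8 genes, 3 were called in Δ306, 5 when only the groups compared were fitted and 6 in the small table. Over all genes 1474, 3429 and 3101 were called in these 3 fits. Without the libraries low in Y-linked genes 0 were called in Δ306, 0 in Δ93 (against 7), 1 in Δ225 against Δ93 (against 7), 0 in Δ225 against Δ306 (against 3) and 0 in Δ225 against Δ104 (against 1). Fitting only the groups compared also left 0 in Δ225 against Δ104. In Δ93 that fit lost the call of Krt19 (adjusted p = 0.0623) and gained that of Lhx9 (adjusted p = 0.0378). Without the low-count filter, Wt1 and Upk3b were not called in Δ93 (adjusted p = 0.072 and 0.0728). DESeq2 called 2 in Δ104, 2 in Δ93 against Δ104 and 3 in Meis1 KO, against 0 by edgeR in each. Over all genes it called 601, 546 and 1410 in these, against 14, 12 and 303 by edgeR. With each library left out in turn the count was 0 to 4 in Δ306, 0 to 3 in Δ104, 4 to 7 in Δ93, 6 to 8 in Δ225 against Δ93, 1 to 3 in Δ225 against Δ306, 0 to 3 in Δ225 against Δ104, 0 to 2 in Δ93 against Δ104, 0 to 1 in Δ104 against Δ306 and 0 to 4 in Meis1 KO. Over all genes the count across alternatives was 25 to 3429 in Δ306 (1474 as reported), 0 to 1638 in Δ225 (48), 0 to 601 in Δ104 (14), 9 to 4491 in Δ93 (3229), 546 to 6429 in Δ225 against Δ93 (4767), 240 to 4229 in Δ225 against Δ306 (3030), 0 to 557 in Δ225 against Δ104 (148), 2 to 791 in Δ93 against Δ104 (12), 2 to 169 in Δ93 against Δ306 (18), 0 to 385 in Δ104 against Δ306 (15) and 15 to 2204 in Meis1 KO (303). The cause was not tested.

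The labels do not say whether replicate numbers pair the samples. Same-numbered libraries had correlated deviations over 0.1 in 9 of 35 pairs (-0.307 to 0.481) and in 2 of 3 pairs of the Meis1 table (-0.018 to 0.375). Differently numbered libraries were not correlated for comparison, so these values do not decide whether the samples are paired. With the replicate number as a block, 2 of the 8 genes were called in Δ104 (against 0) and 0 in Δ225 against Δ104 (against 1), and over all genes 1638 in Δ225, 470 in Δ104 and 32 in Meis1 KO. In Δ93 the block lost the calls of Krt19 (0.993, adjusted p = 0.14) and Upk3b (0.781, adjusted p = 0.108). It gained that of Lhx9 (0.854, adjusted p = 0.0135). The block turned the sign of Krt19 (-0.169), Upk3b (-0.054) and Wt1 (0.074) in Δ225 and of Lhx9 (0.068) in Δ225 against Δ306.

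The remaining changes of sign were of values not called. Without the libraries low in Y-linked genes these were Podxl (-0.052) and Upk3b (-0.139) in Δ225, Lhx9 (0.023) in Δ93 against Δ104 and Emx2 (0.002) in Δ104 against Δ306; without a composition factor it was Wt1 (-0.007) in Δ104 against Δ306. With each library left out, log2 fold changes in Δ225 ran from -0.07 to 0.269 for Emx2, -0.032 to 0.262 for Nr2f2, -0.023 to 0.138 for Podxl, -0.109 to 0.159 for Upk3b and -0.159 to 0.02 for Wt1. They ran from -0.253 to 0.355 for Tcf21 in Δ225 against Δ104, and in Δ93 against Δ104 from -0.327 to 0.076 for Lhx9 and -0.007 to 0.394 for Upk3b. In Δ93 against Δ306 they ran from -0.344 to 0.042 for Nr2f2 and -0.265 to 0.184 for Tcf21. In Δ104 against Δ306 they ran from -0.514 to 0.077 for Emx2, -0.702 to 0.033 for Podxl, -0.116 to 0.267 for Upk3b and -0.105 to 0.217 for Wt1, and in Meis1 KO from -0.009 to 0.156 for Wt1. Of all values for single genes of the 8 under the alternatives, 1234 kept direction and side of the threshold, 70 lost it, 33 gained it and 31 changed sign.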
